A study of Mus musculus with 3 samples.

Results

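The Rbp4 cells are a small set of GFP+ cells from the neocortex (NCx) of Sst-Cre;RCE mice that carried mRNA of the retinol carrier gene Rbp4. They were chosen by counts of unique molecular identifiers (UMIs, each marking 1 captured mRNA molecule). A cell belonged to the set when it had more than 700 genes, under 10% of its UMIs from mitochondrial genes, at least 2 UMIs of Rbp4, and 0 UMIs of Nos1, Pdyn, and Myh8. Of 12324 cells in 3 libraries, 9433 passed the limits on genes and mitochondrial UMIs, and 388 of these were Rbp4 cells. The E16.5 library held 36 of them among 3952 kept cells, the P1 library 82 among 2501, and the P5 library 270 among 2980. They were described against Lhx6 cells, which are the kept cells with at least 1 UMI of Lhx6 and 0 UMIs of Nos1 and Rbp4. The 3 libraries held 3164, 1434, and 1256 Lhx6 cells. The levels of Rbp4, Nos1, Pdyn, Myh8, and Lhx6 were set by these rules and are given as a description.

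The study asked how the diversity of SST+ neurons emerges during development, and each stage was measured in 1 library. All mice carried SstCre/+ and RCEfl/+, so that cells with a history of Sst promoter activity express GFP, including cells that no longer make Sst. Tissue of 6 animals was pooled for the E16.5 library, and that of 3 animals for each of the P1 and P5 libraries. Myelin was removed from the P1 and P5 suspensions, and trypsin was added for P5 tissue, so stage, pool, and dissociation cannot be told apart. Cells of 1 pool are not replicates. Therefore no test was made, a gene is called higher or lower when its level differed at least 2-fold, and all intervals are 95% intervals for counting error only.

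SST+ neurons arise in the medial ganglionic eminence (MGE), where the transcription factor Lhx6 is switched on, and migrate to the cortex, where they form Martinotti cells, non-Martinotti interneurons, and a few Nos1+ neurons with long-range projections. Somatostatin inhibits its target neurons through a family of receptors that also bind cortistatin, the peptide made from the gene Cort. Rbp4 is best known as the liver-made carrier of retinol in plasma, and a Cre line driven by it is widely used to label pyramidal neurons of layer 5. Trhde encodes a membrane peptidase that inactivates thyrotropin-releasing hormone.

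The 3 libraries held 25638779, 15654107, and 13429055 UMIs, and values given in a row of 3 follow the order E16.5, P1, and P5. Over all pairs of libraries, 10 cell barcodes were shared, and none of them was an Rbp4 cell. No doublet caller was run. Levels are UMIs summed over the cells of a group within 1 library, scaled to 1000000 UMIs of that group (CPM), and differences are log2 ratios taken after a pseudocount of 1 CPM was added, which shrinks the ratios of low genes.

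Cells with an Rbp4 UMI were uncommon at E16.5 and made up a larger share of the later libraries. At least 1 Rbp4 UMI was found in 118 kept cells (2.99%) of the E16.5 library, 206 (8.24%) of the P1 library, and 755 (25.3%) of the P5 library. The Rbp4 cells themselves were 0.911% (0.639% to 1.26%), 3.28% (2.62% to 4.05%), and 9.06% (8.05% to 10.1%) of the kept cells. These intervals are exact Clopper-Pearson intervals and do not compare stages. The exclusion of Nos1, Pdyn, and Myh8 removed no cell at E16.5. At P1, of 99 cells with at least 2 Rbp4 UMIs, 6 had a Nos1 UMI, none had a Pdyn UMI, and 12 had a Myh8 UMI. At P5, of 386 such cells, 18 had a Nos1 UMI, 45 a Pdyn UMI, and 57 a Myh8 UMI. The members lay close to the limit of the rule, since exactly 2 Rbp4 UMIs were counted in 25, 37, and 121 of them, 3 to 5 in 10, 35, and 116, and over 5 in 1, 10, and 33. The highest Rbp4 count in 1 cell was 7, 16, and 32.

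The rule selected deeply captured cells. The median was 15917.5, 9852, and 5826 UMIs per Rbp4 cell against 5733.5, 3537.5, and 4107 per Lhx6 cell, and the median number of genes was 4603, 3828.5, and 2758.5 against 2599, 1973.5, and 2180.5. Of the Rbp4 cells, 25 of 36, 22 of 82, and 42 of 270 were among the 5% of kept cells with most UMIs. The median mitochondrial share was 5.15%, 6.51%, and 3.76% in Rbp4 cells and 4.01%, 6.23%, and 4.52% in Lhx6 cells. To set depth aside, the main ratios are also given against the 3 Lhx6 cells nearest in UMIs to each Rbp4 cell. These were 108, 246, and 810 cells with a median of 15894, 9124, and 5206 UMIs, and this second comparison was added after the first results had been seen. The part that depth plays in ratios against all Lhx6 cells was not tested beyond these values.

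The markers on which the results turn lie on different chromosomes of GRCm38. Rbp4 spans chr19:38116629-38125281, Cort spans chr4:149125034-149126763, Trhde spans chr10:114398823-114802307, and Sst spans chr16:23889573-23890958, all on the minus strand. Because Sst is a textbook target of cAMP signaling through the CRE motif TGACGTCA, the 250 bases before each RefSeq start (GRCm38.p6) were searched on both strands for this motif and for its short form, TGACG or CGTCA, which every full motif also holds. The motif was chosen with the results known. The promoter window of Cort is shown in full because Cort separated Rbp4 cells from Lhx6 cells in each library (chr4:149126764-149127013, minus strand, 5′ to 3′, short motif in capitals):
Cort window: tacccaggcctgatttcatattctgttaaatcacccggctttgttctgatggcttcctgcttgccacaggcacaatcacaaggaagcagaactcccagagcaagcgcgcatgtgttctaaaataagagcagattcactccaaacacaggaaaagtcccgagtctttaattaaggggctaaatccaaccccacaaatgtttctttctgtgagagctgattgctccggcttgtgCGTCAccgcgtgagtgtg

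For comparison, the stretches that hold a motif in capitals were taken from the windows of Sst (chr16:23890875-23890902) (higher in the same cells at P5) and Rbp4 (chr19:38124969-38124993), which the rule used, and are set beside that of Cort (chr4:149126767-149126791), all read on the minus strand:
Sst: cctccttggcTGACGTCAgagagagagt
Cort: ccggcttgtgCGTCAccgcgtgagt
Rbp4: acggcaaggcTGACGgaggggcccc

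The motif lay 48 to 41 bases before the start of Sst, 18 to 14 before that of Cort, and 172 to 168 before 1 of 2 RefSeq starts of Rbp4. The window of Trhde held neither form. The full motif was present in 508 of 32851 promoter windows of this length (1.55%), and the short form in 5836 (17.8%). These matches describe letters and do not mark binding sites.

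Cort was higher in Rbp4 cells in each library. It reached 371 CPM (322 to 425), 597 CPM (544 to 653), and 1426 CPM (1369 to 1485), while Lhx6 cells had 54.7, 107, and 266 CPM. The log2 ratios were 2.74, 2.47, and 2.42. Against the Lhx6 cells nearest in UMIs, which had 197, 159, and 280.3 CPM, they were 0.91, 1.90, and 2.34, so that at E16.5 the difference fell under 2-fold once depth was matched. The counting intervals of Rbp4 cells and depth-matched cells did not overlap in any library.

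Most Rbp4 cells carried Cort. A Cort UMI was present in 29 of 36 (80.6%), 64 of 82 (78.0%), and 214 of 270 cells (79.3%), against 14.2%, 17.2%, and 31.0% of Lhx6 cells. Excitatory cells, defined by at least 3 UMIs of Neurod2, Neurod6, and Slc17a7 together and no Gad1 or Gad2, stand for free RNA, and a Cort UMI was found in 2 of 35, 1 of 30, and 0 of 23 of them (up to 14.8%), at a median of 10710, 5236, and 3463 UMIs. When every cell was thinned to 2000 UMIs, which left out 0, 7, and 16 Rbp4 cells, the shares were 44.4%, 56.0%, and 65.4% of Rbp4 cells and 5.48%, 10.5%, and 23.3% of Lhx6 cells. Single Rbp4 cells held between 0 and 23 Cort UMIs at E16.5 (median 3), between 0 and 33 at P1 (median 4), and between 0 and 90 at P5 (median 5).

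Trhde followed the same direction with smaller ratios. Its level in Rbp4 cells was 91.4 CPM (68.0 to 120.1), 314 CPM (276 to 356), and 542 CPM (507 to 579), against 40.0, 71.3, and 267 CPM in Lhx6 cells. The log2 ratios of 1.17, 2.13, and 1.02 became 0.68, 1.35, and 0.89 at matched depth, where Lhx6 cells had 56.8, 123, and 292 CPM. A Trhde UMI was found in 16 of 36, 66 of 82, and 231 of 270 Rbp4 cells, and in 2 of 35, 4 of 30, and 5 of 23 excitatory cells. Of the Rbp4 cells, 15 of 36, 53 of 82, and 184 of 270 carried both Cort and Trhde. The other marker genes of the set were thus found together in most Rbp4 cells of the P1 and P5 libraries. The laminar position of the cells cannot be read from sorted suspensions, so the word deep in their working name was not checked.

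**Figure D1:**
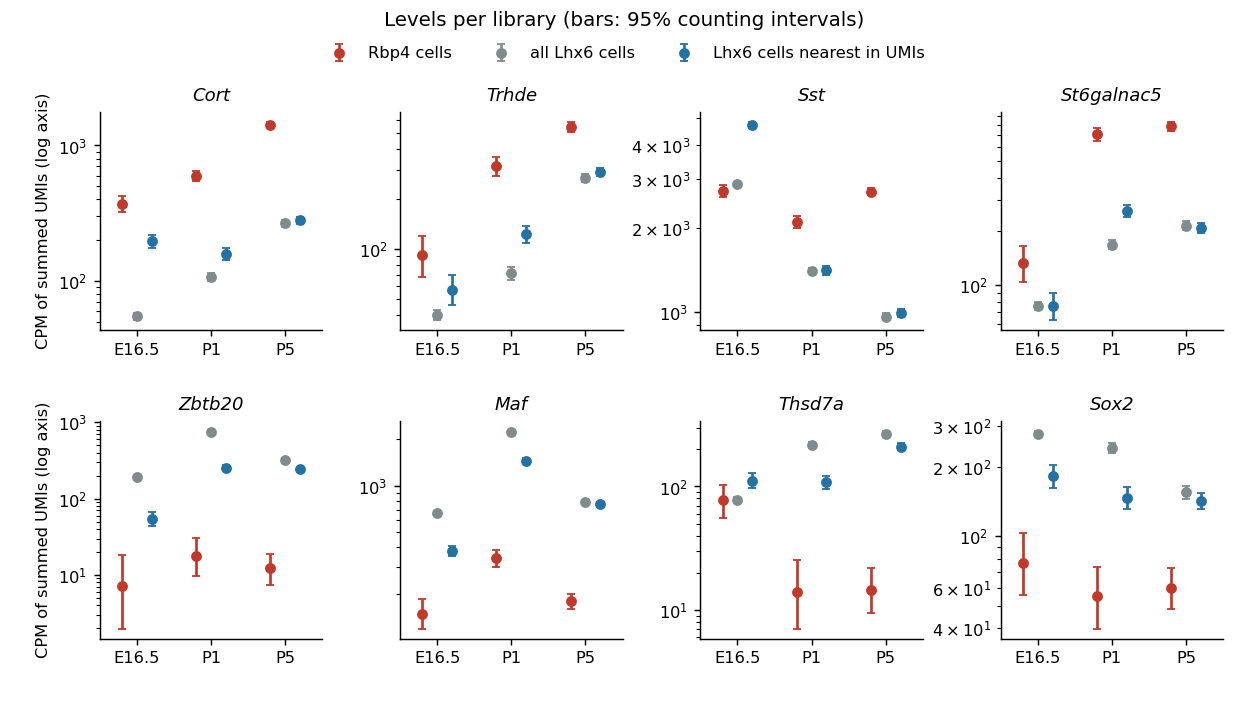
Level of 8 genes (CPM of summed UMIs, log axis) in Rbp4 cells, all Lhx6 cells, and the Lhx6 cells nearest in UMIs at E16.5, P1, and P5, 1 library each, with bars for 95% counting intervals. Cort is highest in Rbp4 cells at each stage (371, 597, and 1426 CPM), and Zbtb20, Maf, and Sox2 are lowest there.

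Sst itself was past 2-fold at P5 alone. Rbp4 cells had 2725, 2104, and 2710.0 CPM, and Lhx6 cells had 2881, 1411, and 963 CPM. The log2 ratio was -0.08, 0.58, and 1.49, and -0.79, 0.57, and 1.45 at matched depth. An Sst UMI was present in 34 of 36, 76 of 82, and 250 of 270 Rbp4 cells. It was found in 75.7%, 68.7%, and 62.4% of Lhx6 cells and in 11 of 35, 5 of 30, and 1 of 23 excitatory cells. Lhx6, which the rule did not ask of Rbp4 cells, had a UMI in 34 of 36, 77 of 82, and 233 of 270 of them. The cells therefore carried the defining mRNAs of MGE-derived SST+ neurons at each stage.

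Across the 6209 genes that passed the filter on low values in every library (at least 10 UMIs in both groups together and 20 CPM in the higher group), 12 genes (0.193%) were at least 2-fold higher in Rbp4 cells in each of the 3 libraries and 16 (0.258%) were at least 2-fold lower. In single libraries, 228 (3.67%), 136 (2.19%), and 28 genes (0.451%) were higher, and 224 (3.61%), 113 (1.82%), and 59 (0.950%) were lower. Against the depth-matched Lhx6 cells, 5 of 6108 genes (0.0819%) were higher in every library and 7 (0.115%) were lower. Of these 12 genes, Cr2, Fosl2, Shisa9, Thbs1, Sox2, Maf, Pcdh8, and Zbtb20 were also past 2-fold in the comparison with all Lhx6 cells. The remaining genes were Ldb2, Gpr22, Nkain3, and Man1a.

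The largest difference that held in all 3 libraries was a lower level in Rbp4 cells. Zbtb20, a zinc finger repressor, had 7.17, 17.9, and 12.2 CPM in Rbp4 cells, from 4, 14, and 20 UMIs, and 192, 747, and 326 CPM in Lhx6 cells. Its log2 ratios were -4.56, -5.31, and -4.63, and -2.75, -3.77, and -4.24 at matched depth. Only 4 of 36, 7 of 82, and 15 of 270 Rbp4 cells had a Zbtb20 UMI, against 37.0%, 67.4%, and 39.8% of Lhx6 cells.

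Maf, a bZIP factor of MGE-derived interneurons, was present but low. It had 149, 339, and 178 CPM in Rbp4 cells and 669.5, 2217, and 781 CPM in Lhx6 cells, with log2 ratios of -2.16, -2.71, and -2.12, and of -1.34, -2.10, and -2.08 at matched depth. Sox2, an HMG-box factor of neural progenitors, had 77.0, 55.0, and 59.7 CPM against 278, 241, and 155 CPM, and its ratios of -1.84, -2.12, and -1.36 were -1.23, -1.40, and -1.24 at matched depth. All 3 factors were at least 2-fold lower in each library under both comparisons. Among the other lower genes, Thbs1, which encodes the matrix protein thrombospondin 1, had 1, 8, and 7 UMIs in Rbp4 cells, with log2 ratios of -4.76 (-10.7 to -2.90), -2.96, and -2.31. Pcdh8, a protocadherin, had 37.6, 14.1, and 22.5 CPM against 114, 104, and 59.0 CPM in Lhx6 cells. Its ratio at matched depth was -1.56, -2.16, and -1.17.

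Other genes rested on few UMIs or came closer to Lhx6 cells at matched depth. Neb, better known for the muscle protein nebulin, had 1, 5, and 6 UMIs in Rbp4 cells and ratios of -4.16 (-10.1 to -2.29), -4.69, and -2.55. Vcan, which encodes the proteoglycan versican, had ratios of -1.47, -1.48, and -2.83, and of -0.86, -1.39, and -2.81 at matched depth. Rps6ka5 (an MSK kinase), Syndig1 (an AMPA receptor partner), Cdk19 (a Mediator kinase), Mpped2, and Tox3 lay between -1.95 and -1.25 in all libraries. At matched depth, all 5 were less than 2-fold lower at E16.5, where Mpped2 had a ratio of -0.34 and Syndig1 of -0.58.

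**Figure D2:**
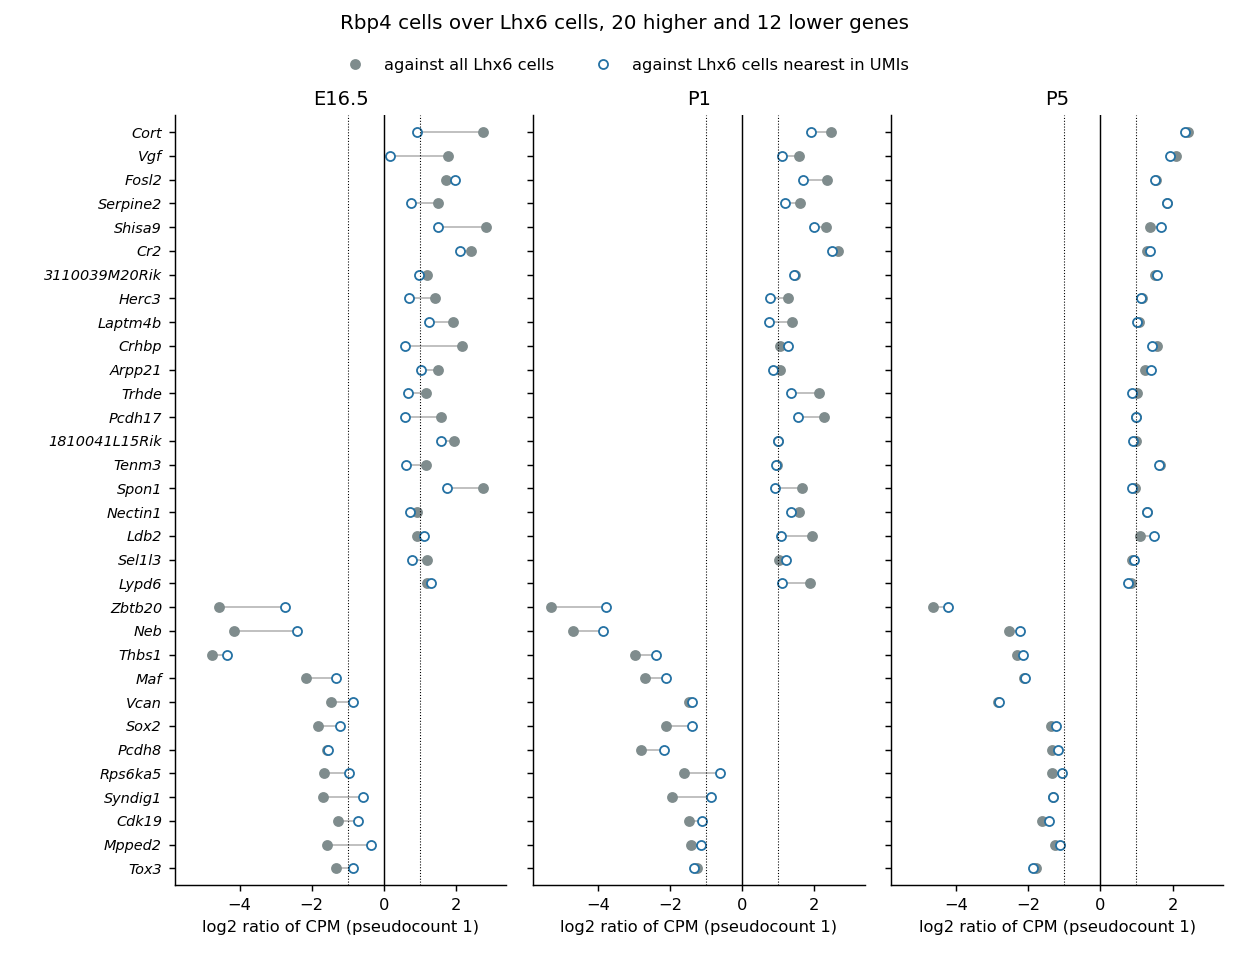
Log2 ratio of CPM in Rbp4 cells over Lhx6 cells (pseudocount 1 CPM) for the 20 genes with the largest lowest ratio over the libraries and the 12 genes with the smallest highest ratio, in 1 panel per library. Filled points are ratios against all Lhx6 cells and open points against those nearest in UMIs, and dotted lines mark 2-fold. At E16.5, Cort is at 2.74 and 0.91.

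Besides Cort and Trhde, 10 genes were at least 2-fold higher in each library. Vgf, which encodes a granule protein that is cut into peptides, had 78.8, 72.8, and 149.7 CPM in Rbp4 cells against 22.3, 23.7, and 34.2 CPM in Lhx6 cells. Its log2 ratios were 1.78, 1.58, and 2.10, and 0.18, 1.11, and 1.94 at matched depth. Fosl2, a subunit of the AP-1 factor, had 21.5, 84.3, and 48.7 CPM against 5.83, 15.6, and 16.03 CPM, and its ratios at matched depth were 1.96, 1.70, and 1.501. Unlike Vgf, Fosl2 was past 2-fold at each stage under both comparisons. At E16.5 it rested on 12 UMIs in Rbp4 cells, and its interval against all Lhx6 cells (0.89 to 2.74) reached below 2-fold.

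Shisa9, an auxiliary subunit of AMPA receptors, had 55.5, 116, and 82.8 CPM against 6.93, 22.2, and 31.5 CPM, with ratios of 2.83, 2.34, and 1.37. Its ratios were 1.49, 2.00, and 1.69 at matched depth. At P5, 46 of its 136 UMIs in Rbp4 cells came from 27 cells with Tac1 and no Npas1. The 159 cells with Npas1 and no Tac1 had 36.3 CPM, near the 31.5 CPM of Lhx6 cells. Cr2, the gene of a complement receptor, had 44.8, 63.9, and 32.9 CPM in Rbp4 cells against 7.54, 9.31, and 12.8 CPM, with ratios of 2.42, 2.65, and 1.30. Its ratios at matched depth were 2.12, 2.48, and 1.37, so that it was past 2-fold in each library either way. Serpine2, an inhibitor of serine proteases, was at 59.1, 66.5, and 137 CPM against 20.3, 20.98, and 37.5 CPM in Lhx6 cells. Its matched-depth ratios were 0.75, 1.18, and 1.84, so that it was under 2-fold at E16.5.

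Crhbp, which encodes the protein that binds corticotropin-releasing hormone, had ratios of 2.17, 1.06, and 1.56, and of 0.57, 1.27, and 1.44 at matched depth. The ratios of 3110039M20Rik, Herc3 (a ubiquitin ligase), Laptm4b (a lysosomal membrane protein), and Arpp21 (a cAMP-regulated phosphoprotein) lay between 1.04 and 1.93 in the 3 libraries. Just short of 2-fold in 1 or more libraries were Pcdh17, 1810041L15Rik, Tenm3, Spon1, Nectin1, Ldb2, Sel1l3, and Lypd6, whose lowest ratios were between 0.86 and 0.99. Of these, the adhesion molecule Pcdh17 had 469, 1113, and 785 CPM in Rbp4 cells against 155, 229, and 395 CPM, and the matrix protein gene Spon1 had 192, 166, and 239 CPM against 27.4, 51.9, and 122 CPM.

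Other genes had large ratios in some libraries. At E16.5, Rgs4 (a regulator of G protein signaling), Pcp4 (a calmodulin-binding peptide), Thy1 (a surface glycoprotein), Sphkap (an anchor of protein kinase A), and Rit2 (a Ras-like GTPase) had the largest ratios outside the set above, from 2.54 to 3.29. At matched depth these ratios were 1.11, 1.65, 1.13, 1.07, and 1.84. Against all Lhx6 cells, the same genes had ratios between 1.52 and 1.84 at P1 and between 0.30 and 0.86 at P5. In the other direction, Npas1, a bHLH-PAS factor of interneurons, had 1 UMI in Rbp4 cells at E16.5 and 129 CPM in Lhx6 cells (ratio -5.54, -11.5 to -3.69). At P1 and P5 its level in Rbp4 cells was 155 and 267 CPM, against 77.8 and 144 CPM. Reln, the gene of the secreted glycoprotein Reelin, had 6 UMIs and a ratio of -3.69 at E16.5, then 272 and 325 CPM against 349 and 499 CPM. Zbtb16 had 0 UMIs in Rbp4 cells at E16.5 and 35.9 CPM in Lhx6 cells, which is at least 6.69-fold lower than in Lhx6 cells against a floor of 3 UMIs over the group. The values of Npas1, Reln, and Zbtb16 are against all Lhx6 cells. At E16.5 these had a median of 5733.5 UMIs, against 15917.5 in Rbp4 cells. After each cell was thinned as above, an Npas1 UMI was found in 0 of 36 Rbp4 cells at E16.5. Among Lhx6 cells it was found in 527 of 2995 (17.6%). Matched-depth ratios of these 3 genes are not given here, and the part of depth was not tested beyond these values.

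In the postnatal libraries, St6galnac5, which encodes a sialyltransferase, was found in most Rbp4 cells. It had 133, 708, and 782 CPM in Rbp4 cells against 75.6, 168, and 216 CPM in Lhx6 cells, with ratios of 0.80, 2.06, and 1.85, and of 0.80, 1.44, and 1.90 at matched depth. A UMI of it was present in 77 of 82 and 236 of 270 Rbp4 cells at P1 and P5, against 10 of 30 and 9 of 23 excitatory cells. Mgat4c, March1, Gpr22, and Cck had ratios from 1.92 to 2.20 at P1, and those of Mgat4c and March1 at E16.5 were 1.28 and 1.72. Pigk and Nme7 had ratios of 1.27 and 1.10 at P5, and Nme7 had ratios of -0.36 and -0.06 before.

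A further group of genes was less than 2-fold lower at E16.5 and far lower in Rbp4 cells at P1 and P5. Thsd7a, which encodes a protein with thrombospondin repeats, was level with Lhx6 cells at E16.5, with 77.0 CPM against 78.4 CPM, and had 14.1 and 14.6 CPM against 218 and 267 CPM at P1 and P5. Its ratios there were -3.86 and -4.10, and -2.85 and -3.75 at matched depth. Thsd7a was also seldom found in groups outside the Rbp4 cells, as given below. Sox1 was at 64.5 against 113 CPM at E16.5, and had 5 and 7 UMIs and ratios of -3.99 and -3.16 thereafter. Nfib, a CTF family factor, had 109 against 118 CPM at E16.5, where its 61 UMIs came from 13.9% of Rbp4 cells, and 5 and 4 UMIs with ratios of -3.76 and -3.63 at P1 and P5. With 1 library per stage, whether these differences between stages exceed the spread between animals cannot be said.

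The levels were next read by the number of Rbp4 UMIs per cell, on both sides of the limit of 2 UMIs. Cells with exactly 1 Rbp4 UMI (79, 88, and 269 cells without Nos1, Pdyn, and Myh8) lay between Lhx6 cells and Rbp4 cells for Cort, Zbtb20, and Maf in each library. At P5, Cort was at 325 CPM in Lhx6 cells without these genes, at 764 CPM in cells with 1 Rbp4 UMI, at 1044 CPM with 2, at 1422 CPM with 3 to 5, and at 2417 CPM with over 5. Sst was at 956, 1589, 1802, 2958, and 4365 CPM in the same classes. Trhde did not follow this order above the limit, with 238, 438, 548, 536, and 545 CPM.

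Zbtb20 and Maf were already lower in cells with 1 Rbp4 UMI. Zbtb20 at P5 was at 379.8 CPM without Rbp4, 58.6 CPM with 1 UMI, 16.4 CPM with 2, and 9.87 and 7.62 CPM above. At P1, the level was 778 CPM without, 68.8 CPM with 1 UMI, 3.09 CPM with 2 UMIs (from 1 UMI of Zbtb20), and 36.2 CPM with 3 to 5. Maf at P5 was at 718, 268, 201, 178, and 122 CPM. The classes also differed in depth, since the median was 3720.5, 4714, 5475, 5854.5, and 8435 UMIs per cell at P5, and its part in these orders was not tested.

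**Figure D3:**
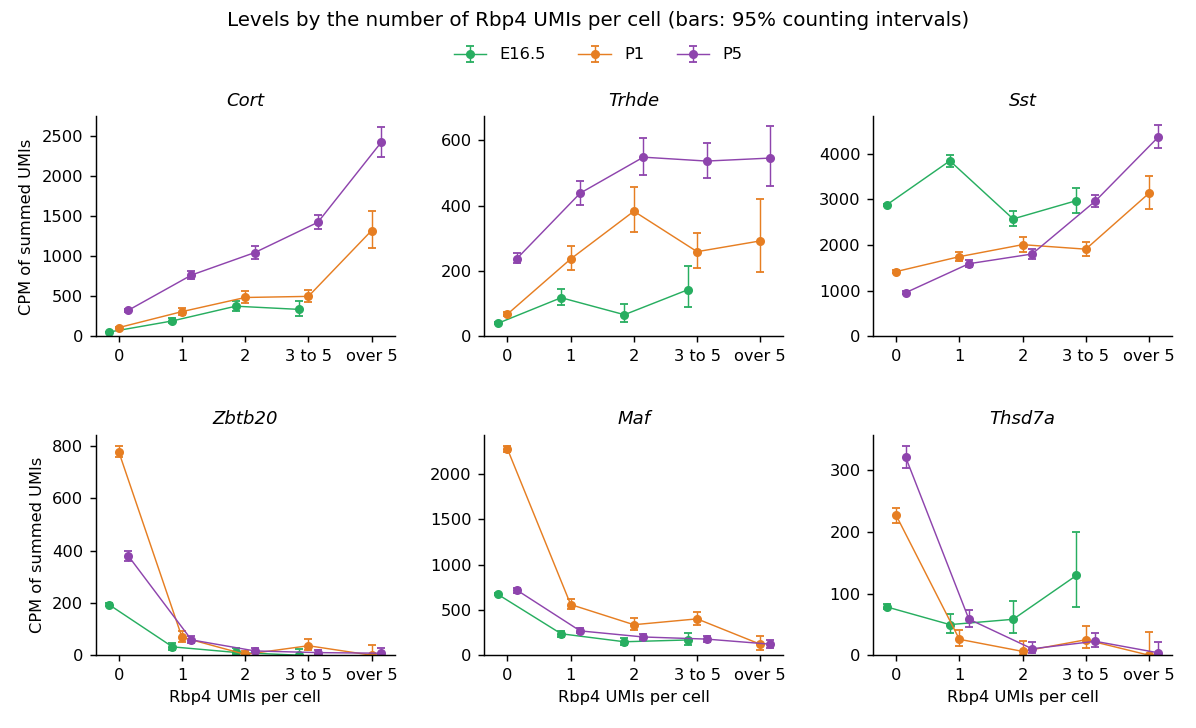
Level of 6 genes (CPM of summed UMIs, linear axis) by the number of Rbp4 UMIs per cell, for classes of at least 10 cells, with 1 line per library and bars for 95% counting intervals. From 0 to over 5 Rbp4 UMIs, Cort at P5 goes from 325 to 2417 CPM and Zbtb20 from 379.8 to 7.62 CPM.

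The level of these genes also varied with depth within Lhx6 cells. In 4 classes of depth (under 2000, 2000 to 4000, 4000 to 8000, and over 8000 UMIs), Zbtb20 in Lhx6 cells had 703, 389, 231, and 73.5 CPM in the E16.5 library, 1469, 1271, 717, and 167 CPM in the P1 library, and 823, 568, 228, and 147 CPM in the P5 library. In Rbp4 cells with over 8000 UMIs it was at 7.60, 17.5, and 19.1 CPM, below the level of Lhx6 cells of the same depth in every library. Cort in Lhx6 cells of the deepest class reached 111, 167, and 303 CPM, and 386, 584, and 1311 CPM in Rbp4 cells of that class. Low-depth cells carried Cort too, since the 16 Rbp4 cells with under 2000 UMIs at P5 had 2349 CPM and the 7 such cells at P1 had 987 CPM, from 55 and 10 Cort UMIs.

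**Figure D4:**
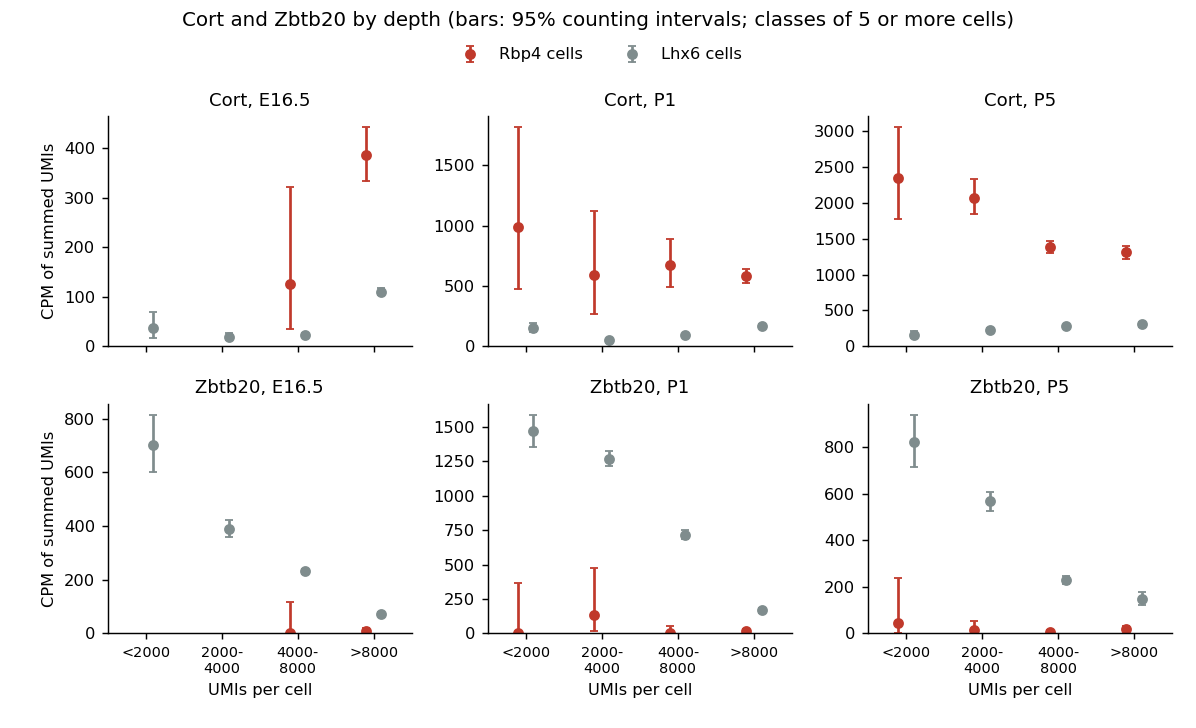
Cort (top) and Zbtb20 (bottom) in CPM of summed UMIs by class of UMIs per cell, in Rbp4 cells and Lhx6 cells of each library, for classes of 5 or more cells, with bars for 95% counting intervals. Zbtb20 falls with depth in Lhx6 cells and is lower in Rbp4 cells in every class shown, and Cort is higher in Rbp4 cells in every class shown.

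Gene lists chosen by function were then described by their counts, beside the median log2 ratio over all genes tested, which was -0.04, -0.04, and -0.0031. Over all genes tested, 3.67%, 2.19%, and 0.451% were 2-fold higher against all Lhx6 cells, and 3.61%, 1.82%, and 0.950% were lower. Neuropeptides had the highest median of the functional lists at P1 and P5. Of 17 listed, 6 passed the filter, and 1, 3, and 4 of these were at least 2-fold higher and 2, 1, and 0 lower, with medians of -0.27, 1.15, and 1.26. Cort was joined at P1 by Tac1, the precursor of substance P, and Cck, which encodes cholecystokinin, and at P5 by Tac1, Sst, and Pnoc, the nociceptin precursor. Cck had 3 UMIs at E16.5, and 118 and 94.4 CPM against 30.4 and 47.0 CPM in Lhx6 cells at P1 and P5. Tac1 and Cck were carried by a minority of Rbp4 cells. A Tac1 UMI was found in 9 of 82 and 29 of 270 of them at P1 and P5, and a Cck UMI in 25.6% and 15.6%. Pnoc had 127 against 61.6 CPM at P5. Npy was lower at P1 (327 against 1398 CPM) and was at 1182 against 1632 CPM at E16.5 and 788 against 946 CPM at P5.

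The peptide processing list held 13 tested genes of 19. Against all Lhx6 cells, 2 of these were 2-fold higher in each library, Vgf and Trhde, itself a marker gene of the set, beside 0.193% of all genes. The median of the list was 0.05, 0.07, and 0.50, and at P5 all 13 ratios were above 0. At matched depth, 0, 2, and 1 of the 13 were 2-fold higher and 1, 0, and 0 lower, with medians of 0.11, 0.11, and 0.47. Chga and Chgb, which encode granins of secretory granules, had 129 and 235 CPM at P5 against 67.0 and 142 CPM. Pam, which amidates peptides, had 3 UMIs in Rbp4 cells at E16.5 (ratio -3.34) and ratios of -0.52 and 0.11 later. Of 27 peptide receptors, 3 passed the filter and none was past 2-fold. The somatostatin receptor gene Sstr1 had 50.2, 81.8, and 108 CPM in Rbp4 cells and 41.8, 66.7, and 119 CPM in Lhx6 cells.

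Few genes of the retinoid pathway were high enough to be read. Of 21 genes listed, 3 passed the filter (Rdh11, Rara, and Rxrb), none of them past 2-fold, with ratios between -0.29 and 0.32. Rara, a retinoic acid receptor, had 55.5, 53.7, and 32.3 CPM in Rbp4 cells against 53.9, 51.7, and 33.9 CPM.

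The list of MGE lineage factors had 22 tested genes of 28 and medians of -0.54, -0.47, and -0.33. At matched depth its medians were -0.12, -0.14, and -0.28. Against all Lhx6 cells, 6, 4, and 5 of these genes were 2-fold lower, beside 3.61%, 1.82%, and 0.950% of all genes. Higher were 1, 2, and 0, beside 3.67%, 2.19%, and 0.451%. At matched depth, 3, 4, and 4 were lower and 0, 1, and 0 were higher. Cux2, a homeodomain factor, had 116, 109.9, and 61.5 CPM against 261, 466, and 138 CPM, and with Maf it was the factor that was 2-fold lower in every library, but its ratio at E16.5 was -0.25 at matched depth. Bcl11a, a zinc finger factor, had ratios of -0.83, -1.59, and -1.12. Satb1, a chromatin organizer that promotes the differentiation of SST+ neurons, was at 639.5, 979, and 782 CPM against 584, 535, and 608 CPM.

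Vesicle release and channel genes had medians of at most 0.17 at matched depth. Synaptic vesicle release genes had medians of 0.52, 0.52, and 0.17 over 21 tested genes of 27, with 3, 2, and 0 of them 2-fold higher, and medians of 0.16, 0.17, and 0.15 at matched depth. Syt4 was at 374, 558, and 386 CPM against 113, 220.0, and 236 CPM, and its ratios at matched depth were 0.97, 1.02, and 0.71. Voltage-gated channels (28 of 33 tested) had medians of 0.20, 0.31, and 0.01, and of 0.06, 0.15, and 0.01 at matched depth. Cacna2d2, an auxiliary calcium channel subunit, was the channel gene past 2-fold at P5, with 721 against 339.6 CPM. Calcium-binding proteins had medians of 1.14, 0.70, and 0.49 over 6 tested genes of 12, with calbindin (Calb1) at 564, 202, and 296 CPM against 274, 124, and 146 CPM and matched-depth ratios of 0.07, 0.77, and 0.98.

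GABA-A receptor subunits (8 of 12 tested) had medians of 0.65, 0.56, and 0.29, with Gabra5 at 46.6, 80.5, and 77.3 CPM against 13.6, 41.6, and 53.7 CPM. Genes of GABA synthesis and chloride transport (9 of 11) had medians of 0.38, 0.32, and 0.09, and Gad2, which makes GABA, was at 158, 401, and 720.1 CPM, with ratios of -0.98, 0.03, and 0.84. Ionotropic glutamate receptors (16 of 18) had medians of -0.08, 0.16, and -0.10, and metabotropic, monoamine, and cholinergic receptors (6 of 25) had medians of 0.03, 0.20, and 0.05. No gene of these 4 receptor and transport lists was past 2-fold in every library.

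Of 21 tested cadherins and contactins (of 31), 3, 4, and 1 were 2-fold higher, beside 3.67%, 2.19%, and 0.451% of all genes, and 4, 3, and 4 were lower, beside 3.61%, 1.82%, and 0.950%. At matched depth, 0, 2, and 1 were higher and 4, 3, and 4 lower. Pcdh17 was among the higher genes, and Pcdh8 and the X-linked Pcdh11x (32.2, 15.3, and 15.2 CPM against 19.8, 42.7, and 91.3 CPM) were among the lower ones at P1 and P5. Synaptic organizers (25 of 36) had medians of 0.02, 0.17, and 0.07, with Tenm3 at 50.2, 74.1, and 67.6 CPM against 22.0, 37.4, and 20.8 CPM and Ptprd at 265, 158, and 111 CPM against 465, 555, and 292 CPM. Axon guidance genes (15 of 31) had medians of -0.32, -0.06, and 0.13, and genes of activity and growth factor signaling (9 of 16) had medians of -0.35, 0.31, and 0.21.

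Genes of immature and migrating neurons had medians of 0.03, 0.04, and -0.08 over 19 tested genes of 22. Sox11, a factor of newborn neurons, was at 1202, 786, and 244 CPM against 3822, 2074, and 464 CPM, and its ratios of -1.67, -1.40, and -0.92 became -0.63, -0.71, and -0.73 at matched depth. Sox4 had ratios of -1.25, -0.91, and -0.80, and of -0.03, 0.27, and -0.48 at matched depth. These lists were chosen with earlier results known, and their counts are not independent support for a direction.

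The study sorts SST+ neurons into Martinotti, non-Martinotti, and long-range projecting types. Against all Lhx6 cells, the markers of each type went both ways in Rbp4 cells. Over all genes, 3.67%, 2.19%, and 0.451% were 2-fold higher and 3.61%, 1.82%, and 0.950% lower. Of 12 tested Martinotti markers (of 21), 2, 2, and 0 were 2-fold higher and 2, 3, and 3 lower. At matched depth, none of them was higher in any library, and 2, 4, and 3 were lower. Of 10 tested non-Martinotti markers (of 18), 1, 1, and 2 were higher and 1, 3, and 2 lower. At matched depth, 1, 2, and 2 of these were higher and 1, 2, and 2 lower. Cells with Pdyn or Myh8 were left out of the Rbp4 cells but not of the Lhx6 cells, and the part of this was not tested. Of 4 tested long-range markers (of 14), 1 was higher in each library, Crhbp, and 0, 2, and 1 were lower. No name of these types was therefore given to the cells. Of 28 genes in the names of adult SST types, 3 passed the filter (Etv1, Nr2f2, and Tac1), with 1, 2, and 1 of them higher and 1 lower in each library.

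The groups closest to Rbp4 cells by the rule were the cells it excluded. The Rbp4+ cells with a Pdyn or Myh8 UMI numbered 11 at P1 and 98 at P5, with a median of 13805 and 6946.5 UMIs. Their Cort level was 398 and 1044 CPM, against 597 and 1426 CPM in Rbp4 cells, and their Trhde level was 278 and 678 CPM against 314 and 542 CPM. Sst was at 2535 and 2705 CPM. Tac1 had 0 and 3 UMIs in these cells and was at 114 and 115 CPM in Rbp4 cells. A Tac1 UMI was found in 0 of 11 (up to 28.5%) and 1 of 98 of these cells, against 9 of 82 and 29 of 270 Rbp4 cells. The 11 cells at P1 are too few to show a difference. Zbtb20 was at 158 CPM at P1, where its UMIs came from 2 of the 11 cells, and at 11.4 CPM at P5.

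Cells with at least 2 UMIs of Nos1 and none of Rbp4 (28, 299, and 458 cells) differed more. They had 73.7, 12.3, and 32.0 CPM of Cort and 237, 1143, and 839 CPM of Zbtb20. Their Npy level was 18037, 35715, and 40286 CPM, against 1182, 327, and 788 CPM in Rbp4 cells. Their Sst level was 7328, 7063, and 4488 CPM. Cort was therefore lower and Zbtb20 higher in Nos1 cells than in Rbp4 cells in each library, with counting intervals that did not overlap. The Nos1 cells had a median of 7376, 3565, and 3029 UMIs, against 15917.5, 9852, and 5826 in Rbp4 cells, and the part of depth was not tested.

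Among the Rbp4 cells at P5, Tac1 and Npas1 marked nearly separate cells. Of 270 cells, 29 had a Tac1 UMI, 161 had an Npas1 UMI, and 2 had both. At P1, the numbers were 9, 40, and 1 of 82 cells. The 27 cells with Tac1 but not Npas1 and the 159 with Npas1 but not Tac1 were then compared at P5, a split made after the data had been seen. Their median depth was 5006 and 6568 UMIs.

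Cort differed by less than 2-fold between these subsets, at 1552 CPM with Tac1 and 1242 CPM with Npas1, as did St6galnac5 (975 and 796 CPM) and Maf (153 and 181 CPM). Sst was at 756 CPM with Tac1 and 3106 CPM with Npas1, and Trhde was at 139 and 640.2 CPM. Reln had 1 UMI in the Tac1 cells and 420.3 CPM in the Npas1 cells (log2 ratio -5.79, -11.3 to -3.50), and Nr2f2, an orphan nuclear receptor, had 1 UMI and 192 CPM (-4.66, -10.2 to -2.36). The peptide and marker content of the Rbp4 cells thus differed between the subsets at P5, while Cort did not differ 2-fold in that library.

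Several genes were higher in the Tac1 cells. Kirrel3, an immunoglobulin adhesion molecule, was at 146 against 11.2 CPM, Shisa9 at 305 against 36.3 CPM, and Sp9, a zinc finger factor, at 172 against 25.2 CPM. Cck was at 345 against 55.0 CPM, and the neurotrophin receptor gene Ntrk3 at 252 against 42.9 CPM. Erbb4, the neuregulin receptor, was at 378 against 145 CPM. The 8 Tac1 cells and 39 Npas1 cells at P1 showed the same direction for Kirrel3 (258 against 9.57 CPM), Cck (477 against 47.9 CPM), Sst (129 against 2340.3 CPM), and Trhde (116 against 337 CPM). Cort was at 206 against 419 CPM at P1 (log2 ratio -1.02, -1.86 to -0.28). It was thus at least 2-fold lower in the Tac1 cells there, opposite in direction to P5.

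**Figure D5:**
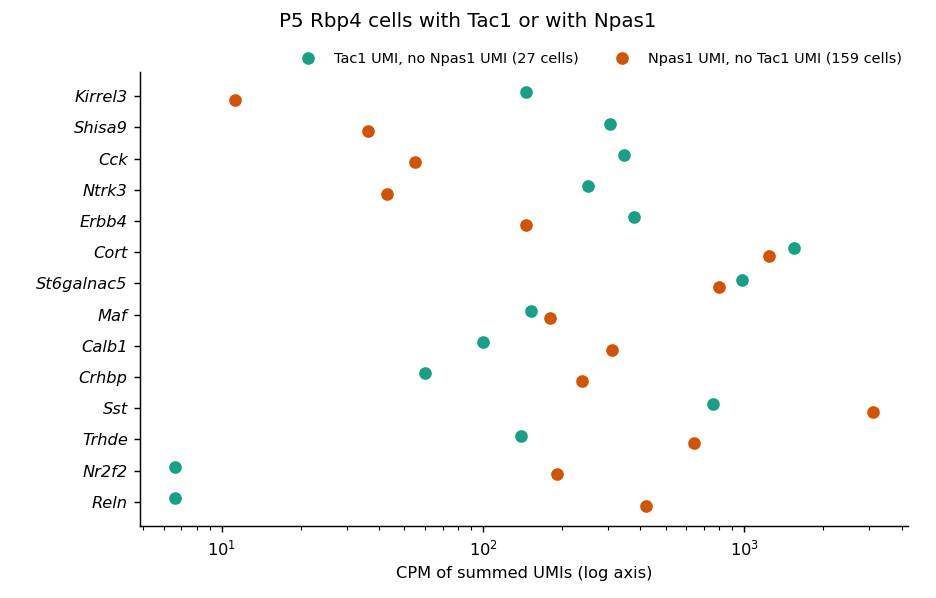
Level of 14 genes (CPM of summed UMIs, log axis) at P5 in the 27 Rbp4 cells with a Tac1 UMI and no Npas1 UMI and the 159 with an Npas1 UMI and no Tac1 UMI. Cort lies at 1552 and 1242 CPM, whereas Sst (756 and 3106 CPM), Trhde (139 and 640.2 CPM), and Reln (6.63 and 420.3 CPM) lie apart.

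Markers of other cells were summed per list in both groups. The 10 excitatory neuron markers summed to 59.1 CPM (33 UMIs) in Rbp4 cells at E16.5 against 10.2 CPM in Lhx6 cells, with 6 of 10 genes at 0, among them Slc17a7 and Slc17a6, and 1 of the 36 cells had at least 3 excitatory UMIs. At P1 and P5, the sum was 2.56 and 4.87 CPM against 14.4 and 5.65 CPM. The 10 markers of interneurons from the caudal ganglionic eminence summed to 77.0, 466, and 370.1 CPM against 136, 208, and 262 CPM, with the defining genes Vip, Prox1, and Sp8 at 0 in each library. In Lhx6 cells these 3 genes were also at or near 0 (at most 2.05 CPM). Of the 10 markers, Cck and Cnr1 passed the filter on low values, and both were at least 2-fold higher in Rbp4 cells at P1 (ratios of 1.92 and 1.03) and under 2-fold higher at P5 (0.99 and 0.49). At matched depth, Cnr1 had ratios of 0.26 and 0.39 there. The 9 parvalbumin interneuron markers summed to 942, 1654, and 1213 CPM against 1106, 2803, and 1936 CPM, with Pvalb at 0 at E16.5 and P1, and 3 of them passed the filter on low values. Of these 3, 0, 1, and 1 had a ratio above 0, with medians of -0.93, -0.25, and -0.14. The gene above 0 at P1 and P5 was Tac1, which was 2-fold higher there (1.73 and 1.88). At E16.5 it was 2-fold lower (-2.35, from 2 UMIs), but under 2-fold lower at matched depth.

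Of the 12 glial markers, 9, 7, and 8 were at 0, and the sum was 51.9, 34.5, and 32.9 CPM against 31.6, 40.7, and 44.99 CPM. The 5 Meis2-type markers summed to 23.3, 15.3, and 8.52 CPM, below Lhx6 cells in each library. The sums for microglia, vascular, red blood cell, choroid plexus, and proliferation markers were at most 20.4 CPM in any library. None of the 12 stress markers, all tested, and none of the 6 tested of 15 immediate early and heat shock genes was past 2-fold. The summed stress markers gave log2 ratios of -0.16, -0.00015, and 0.22, and the immediate early and heat shock genes gave 0.02, 0.22, and 0.46. The part of these cells and states in the differences above was not tested.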

How the data were processed

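GFP+ cells of 3 libraries were used. The authors deposited raw UMI counts for 31053 genes per cell, whole numbers that were not normalized. Per the file headers, the counts come from Cell Ranger, version 3.0.2 for P1 and 3.1.0 for the other libraries, on GRCm38. Per the labels, STAR and Seurat were among the tools. Gene positions came from GENCODE M21, which held 30934 of the gene identifiers, and promoter sequences from RefSeq (GRCm38.p6).

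Cells were filtered, grouped, and summed with numpy 2.4.6, scipy 1.17.1, and pandas 2.3.3 under Python 3.11.15, and plotted with matplotlib 3.10.9. Ratios are log2 ratios of CPM plus 1. Intervals (95%) are exact Poisson for levels, Clopper-Pearson for shares, and conditional binomial for ratios. Groups of cells follow the labels' stages and the UMI rules given with each group. The steps were checked on simulated data. In total, 15 alternatives were planned and 1 was added.

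The genes named are list members, the 20 with the largest lowest ratio and the 12 with the smallest highest ratio over the libraries, and a further 5 higher and 3 lower per library, without mitochondrial, ribosomal protein, and Y-linked genes and Xist. Genes named outside these are Nkain3 and Man1a, and the subset with Tac1 or Npas1, all chosen after their values were seen. The Rbp4 cells, the lists, and the comparisons were chosen with earlier results of these data known. Clusters, pseudotime, and spatial data were not analysed here. 1 listed gene is not reported here.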

Additional observations from a re-analysis of the deposited data

Results flagged for a closer look

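Tac1, the precursor of substance P and neurokinin A, was at least 2-fold lower in Rbp4 cells than in Lhx6 cells at E16.5 (log2 ratio -2.35, -5.70 to -0.78, from 2 UMIs) and at least 2-fold higher at P1 (1.73) and P5 (1.88). At matched depth the ratios were -0.73, 1.26, and 2.16, so that the opposite direction at E16.5 was then under 2-fold.

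Etv1, an ETS factor, showed the reverse order, with ratios of 1.53, -1.42, and -2.21 in the E16.5, P1, and P5 libraries. Its level in Rbp4 cells was 185, 15.3, and 10.3 CPM, against 63.3, 42.6, and 51.6 CPM in Lhx6 cells, and the ratios at matched depth were 0.23, -1.29, and -1.91. With 1 library per stage, neither difference between stages was tested.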

How the results depend on the processing

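No paired analysis was possible because each stage has 1 library and no result comes from a test, and for the same reason no replicate was left out. Ratios are not given for libraries with fewer than 10 Rbp4 cells, and counts over libraries leave out those with fewer than 20. Values in a row of 3 follow the order E16.5, P1, and P5.

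The share of Rbp4 cells followed the rule and the depth. It was 0.618%, 1.34%, and 10.6% with over 1000 genes and under 5% mitochondrial UMIs, 2.91%, 6.80%, and 18.1% with at least 1 Rbp4 UMI, and 0.278%, 1.80%, and 5% with at least 3. After thinning of each cell to 2000 UMIs, which leaves out shallow cells, it was 4.10% and 10.4% at P1 and P5, and it was 0.0553%, 0.875%, and 4.42% when the rule was read on thinned counts. With an Lhx6 UMI also asked, it was 7.82% at P5, and without the deepest 5% of cells it was 0.293% and 2.53% at E16.5 and P1.

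The log2 ratio of Cort stayed above 0 under every alternative that gave a value. It was 2.25, 2.10, and 2.09 with at least 1 Rbp4 UMI, 2.66 at P5 with at least 3, 3.35 and 2.92 at E16.5 and P1 after thinning, 3.68 and 2.55 at P1 and P5 with the rule on thinned counts, 2.13 at P5 against Lhx6 cells also without Pdyn and Myh8, 1.27 and 2.71 at E16.5 and P1 without the deepest 5%, 3.099, 2.74, and 2.62 as a mean over cells, and 0.91 and 1.90 at E16.5 and P1 at matched depth. That of Trhde was 0.058 (8 UMIs) and 0.81 at E16.5 and P5 with the stricter limits, 0.89 at P5 with at least 1 Rbp4 UMI, 1.82 and 1.89 at E16.5 and P1 with at least 3, 2.17 and 1.23 at E16.5 and P5 after thinning, 2.81 and 1.46 at P1 and P5 with the rule on thinned counts, 1.18 at P5 without Pdyn and Myh8 in the reference, 2.57 at P1 without the deepest 5%, 2.76 and 1.32 at P1 and P5 as a mean over cells, and 0.68, 1.35, and 0.89 at matched depth. It reversed to -0.36 at E16.5 without the deepest 5%, where it rests on 3 UMIs. The ratio nearest 0 of Laptm4b was -1.88 after thinning, and that of Arpp21 was -0.51 when no Lhx6 UMI was asked of the reference. The cause of these changes was not tested.

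The number of genes 2-fold higher in every library counted was 26 with at least 3 Rbp4 UMIs (P1 and P5), 187 with the rule on thinned counts (P5 alone), 20 without the deepest 5% (P1 and P5), 48 without the filter on low values, and 5 at matched depth. The number of lower genes was 56 with the stricter limits (P5 alone), 9 with at least 1 Rbp4 UMI, 46 with at least 3 (P1 and P5), 350 with the rule on thinned counts (P5 alone), 48 without the deepest 5% (P1 and P5), 77 without the filter, and 7 at matched depth. Counts over fewer libraries are larger by construction. Of the genes chosen over all libraries, 16 kept their side of 2-fold at matched depth, 15 fell below it, and 1 passed it.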
